A study of Arabidopsis thaliana with 36 samples.

Results

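The response of Arabidopsis thaliana seedlings 24 h after flg22 was read from 3 Col libraries set against 3 fls2 libraries, 6 of the 36 libraries of the series, chosen by the genotype and time in their labels. Col is the wild type and carries the flagellin receptor, and fls2 is a mutant of that receptor whose allele is not stated. Both genotypes were treated alike. Seedlings grown on agar with 25 mM sucrose at 22 °C and 16 h of light went at 6 days into liquid medium with 25 mM sucrose, received 1 µM flg22 after 1 day, and were collected 24 h later in 3 independent trials. No mock-treated seedlings are among the labels, so a difference between Col and fls2 holds the response to the peptide together with any effect of the fls2 genotype itself. The same 2 genotypes sampled at 2 h serve below to show where the late difference departs from the early one. All 4 groups were fitted together with 6 libraries of another genotype, stp1/4/13, treated alike and sampled at the same times, which entered the estimate of the spread and is not compared here.

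flg22 is a conserved stretch of bacterial flagellin. It binds the leucine-rich repeat receptor kinase FLS2, which then pairs with the co-receptor BAK1 and releases the cytoplasmic kinase BIK1. Within minutes this activates NADPH oxidases, calcium influx and MAP kinases, and within hours WRKY transcription factors, salicylic acid and ethylene synthesis and indole metabolites, while growth slows.

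The targeted gene matched the labels. FLS2 (AT5G46330) had 12.9, 20.5 and 32.0 CPM (the share of a library's counts, on a common scale for all libraries) in Col libraries 1, 2 and 3, against 0.170, 0.108 and 0.146 CPM in fls2. Its log2 fold change was 7.21 ± 0.44 (± standard error here and below, n = 3 libraries per genotype; edgeR adjusted p = 7.2e-09). Where the fls2 mutation lies relative to the counted 3′ tag is not stated.

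Total counts were 16.0 to 19.0 M in Col and 17.1 to 19.3 M in fls2, with 23126 to 23502 and 23218 to 23490 loci holding a count. The 10 most abundant genes took 4.76 to 5.43% of the counts in Col and 4.57 to 5.08% in fls2. Reads of chloroplast and mitochondrial genes made up 0.552 to 0.979% in Col and 1.13 to 1.61% in fls2, and their part in any difference was not tested. Library 3 of both genotypes stood apart from libraries 1 and 2, and results that rest on it are given with and without it. The samples were whole plants, and all markers listed for mesophyll, root hair, endodermis, root tip, guard cells and dividing cells had counts in every library. In such bulk samples, fewer cells of a type and less RNA per cell cannot be told apart.

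At 24 h, Col and fls2 still differed at 3984 of 21463 genes tested (18.6%), by edgeR's quasi-likelihood test at a Benjamini-Hochberg adjusted p of 0.05. Of these, 2355 were higher in Col (11.0% of genes tested) and 1629 were lower (7.59%). Counts of list members at 24 h given below are to be read beside these shares. The median log2 fold change over all genes tested was 0.01, over the genes called higher 1.21 and over those called lower -0.97. Past a log2 change of 3 lay 224 higher genes, and past -3 lay 85 lower genes. The direction was the same in all 3 same-numbered pairs of libraries for 3965 of the 3984 genes. These genes were called from the same libraries, so this agreement largely follows from the call and is no separate support. The count of lower genes fell to 955 without Col library 1 and to 1008 without Col library 2. Where a gene is said below to have risen or fallen with no adjusted p beside it, it passed this threshold. Fitting only the 6 libraries, without 2 h and stp1/4/13, gave 2090 genes. With the trial as a block within each time, called the trial block below, 5896 genes passed, 3295 of them higher and 2601 lower.

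Genes of several kinds were among the widest rises of well-expressed genes with a symbol. PCR1, a small membrane protein of a family named for cadmium resistance, had 139.9, 93.0 and 47.1 CPM in Col, against 3.69, 1.52 and 2.57 CPM in fls2 (5.17 ± 0.46). PBS3, the enzyme that couples isochorismate to glutamate on the way to salicylic acid, had 38.2, 39.2 and 42.3 CPM in Col, against 1.53, 1.90 and 1.21 CPM in fls2 (4.69 ± 0.39). The Col values of PBS3 lay within a narrow band, whereas those of PCR1 spread over a wide one. The risers named here were chosen among genes with no overlap between genotypes. CHX17, a cation/proton exchanger, rose by 4.38 ± 0.44, and HAK5, a high-affinity potassium transporter, by 3.73 ± 0.50. XND1, a NAC factor that restrains xylem differentiation, rose by 3.78 ± 0.40. Peptide and inhibitor genes followed: RGF7, a root growth factor precursor, rose by 3.71 ± 0.31, and IDA, the abscission peptide precursor, by 3.54 ± 0.39. PDF1.4, a defensin-like protein, rose by 3.51 ± 0.35 and the chitinase gene CHI by 3.73 ± 0.35. TI1, a trypsin inhibitor of the defensin type, had 1016, 763.6 and 812 CPM in Col, against 156, 32.0 and 64.1 CPM in fls2 (3.36 ± 0.47). The largest of these adjusted p-values from edgeR was 6.5e-05.

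Among the well-expressed genes with a symbol, BAM5 and CORI3 fell most. BAM5, the main extrachloroplastic β-amylase, had 3.88, 3.20 and 4.79 CPM in Col, against 178, 88.2 and 369 CPM in fls2 (-5.73 ± 0.79, edgeR adjusted p = 5.5e-05). CORI3, a coronatine- and jasmonate-induced cystine lyase, had 3.88, 4.37 and 2.77 CPM in Col, against 150.1, 86.2 and 66.4 CPM in fls2 (-4.78 ± 0.58). The fls2 libraries of BAM5 differed among themselves several-fold. The fallers named here were likewise chosen among genes with no overlap between genotypes. AGP3, an arabinogalactan protein, fell by 2.84 ± 0.25 on the log2 scale, the nitrile-specifier gene NSP4 by 2.71 ± 0.24, and GSTU26, a glutathione transferase, by 2.70 ± 0.30. ANNAT4, an annexin, fell by 2.47 ± 0.31 and the glucosyltransferase gene UGT73C1 by 2.44 ± 0.57. SEP3, a MADS-box factor of floral organs, had 17.7, 10.0 and 11.9 CPM in Col, against 56.9, 60.1 and 136 CPM in fls2.

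The promoters of the risers held the W-box, the element bound by WRKY factors, more often than promoters in general. The core was searched as TTGACC or TTGACT on either strand in the 250 bases before each annotated gene start (RefSeq, TAIR10.1). It occurred in 28.8% of 20629 promoters of genes tested, 43.8% of 2320 promoters of genes higher in Col and 22.9% of 1601 promoters of genes lower in Col. Among the 220 promoters of genes higher by more than 3 log2 units the share was 60.9%, and 28.2% held at least 2 copies, against 6.25% of all. Genes higher at both 24 h and 2 h had a W-box in 48.0% of promoters, and genes higher at 24 h and not called at 2 h in 32.7%. The G-box CACGTG, searched the same way, occurred in 5.99% of promoters of higher genes and 7.32% of all. A match is a description of letters, and no binding was measured here. The 15 widest rises of well-expressed, non-overlapping genes with a symbol were then read singly. CYP82C2, PRX52 and FRK1 rose further but had too low a mean level for this set. Of the 15, 7 held a W-box and 3 held at least 2. Those 3 promoters are shown 5′ to 3′ on the gene's strand and end at the base before the start, with W-boxes in capitals (TTGACC or TTGACT, or GGTCAA or AGTCAA where the match is on the other strand). PRX71, a secreted peroxidase, lies on the minus strand (chr5:25661008-25661257), PDF1.4 also on the minus strand (chr1:6782217-6782466) and TI1 on the plus strand (chr2:18066710-18066959).
PRX71: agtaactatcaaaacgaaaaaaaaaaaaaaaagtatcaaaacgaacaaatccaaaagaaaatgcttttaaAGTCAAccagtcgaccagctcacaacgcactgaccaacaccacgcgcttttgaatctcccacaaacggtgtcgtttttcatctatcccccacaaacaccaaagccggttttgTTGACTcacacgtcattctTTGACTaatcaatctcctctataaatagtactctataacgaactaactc
PDF1.4: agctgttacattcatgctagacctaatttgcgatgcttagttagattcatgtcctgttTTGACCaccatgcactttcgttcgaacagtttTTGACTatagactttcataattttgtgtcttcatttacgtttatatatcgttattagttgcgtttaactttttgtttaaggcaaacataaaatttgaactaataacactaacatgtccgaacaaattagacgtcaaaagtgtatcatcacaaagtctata
TI1: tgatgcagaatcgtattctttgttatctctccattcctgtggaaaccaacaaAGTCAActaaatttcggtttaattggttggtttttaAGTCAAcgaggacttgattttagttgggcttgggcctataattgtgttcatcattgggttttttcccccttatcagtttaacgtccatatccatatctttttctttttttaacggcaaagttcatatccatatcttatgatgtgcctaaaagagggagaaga

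The W-boxes of PRX71 began 180, 68 and 49 bases before the start, those of PDF1.4 at 192 and 160 bases, and those of TI1 at 198 and 162 bases. Both PDF1.4 and TI1 thus held their copies in the distal part of the window, and PRX71 held a close pair near the start. The promoters of PCR1, PBS3 and CYP71A12, also among the 15 genes read singly, held no W-box in this window.

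**Figure D1:**
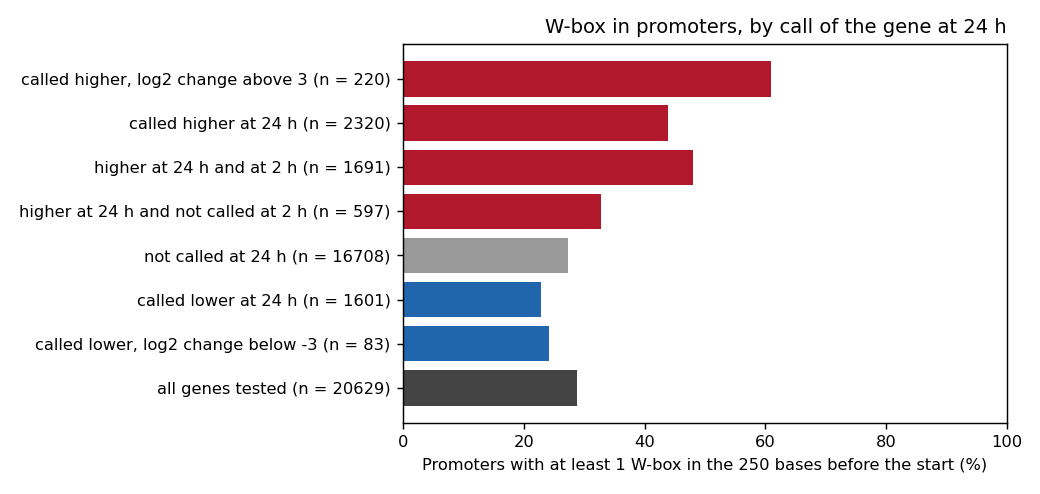
Share of promoters with at least 1 W-box (x axis, percent of promoters, from 0 to 100) by the call of the gene at 24 h (y axis, with the number of promoters). Genes higher by more than 3 log2 units reach 60.9%, genes called lower 22.9% and all genes tested 28.8%.

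Most listed genes of the perception machinery were higher in Col. Of 23 pattern receptors, co-receptors and receptor kinases, 14 rose, none fell and 9 did not pass (median 0.83). FRK1, the receptor-like kinase used as a marker of flg22 perception, had 26.5, 22.2 and 84.3 CPM in Col, against 0.681, 0.814 and 1.41 CPM in fls2 (5.49 ± 0.52). Library 3 was the highest in both genotypes, and the groups were far from overlapping. Of all genes tested, 16.9% had every Col library above every fls2 library. IOS1, a malectin-like receptor kinase, rose by 2.68 ± 0.25, SOBIR1, the adaptor kinase of receptor-like proteins, by 1.71 ± 0.24, and the chitin receptor CERK1 by 1.504 ± 0.16. EFR, the receptor of bacterial EF-Tu, had 13.9, 17.8 and 17.7 CPM in Col, against 9.25, 7.32 and 6.65 CPM in fls2 (1.09 ± 0.18). The co-receptor BAK1 rose by 0.82 ± 0.18 and BIK1 by 1.05 ± 0.17. FLS2, the mutated gene, is 1 of the 14.

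Of 15 MAP kinase cascade genes, 7 rose and none fell (median 0.70), among them MPK3 by 1.29 ± 0.24, MKK1 by 1.47 ± 0.29 and MPK11 by 1.74 ± 0.46 (edgeR adjusted p = 0.012). Of 10 calcium-dependent protein kinases, 2 rose by less than 1 log2 unit and 8 did not pass (median 0.47). Without fls2 library 2, 4 MAP kinase genes passed and MPK11 did not (edgeR adjusted p = 0.055, range 0.00099 to 0.083 over the alternatives), the trial block gave 11, and the fit with only the 6 libraries gave 2. No calcium-dependent kinase passed without Col library 1, Col library 2, fls2 library 2 or fls2 library 3, and 6 passed with the trial block.

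Of 6 precursors of Pep danger peptides, 2 rose and 1 fell. PROPEP2 had 10.5, 12.9 and 22.0 CPM in Col, against 0.624, 0.705 and 1.99 CPM in fls2 (3.74 ± 0.46), and PROPEP3 rose by 3.40 ± 0.46. PROPEP4 had 6.68, 7.69 and 10.7 CPM in Col, against 29.6, 16.6 and 20.9 CPM in fls2 (-1.42 ± 0.37, edgeR adjusted p = 0.012). Without Col library 1, PROPEP4 did not pass (edgeR adjusted p = 0.058, range 0.00081 to 0.058).

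Of 8 NADPH oxidases and apoplastic peroxidases, 7 rose and none fell (median 2.38). PRX52, a peroxidase of lignin formation, had 47.2, 31.1 and 64.2 CPM in Col, against 0.341, 0.380 and 0.776 CPM in fls2 (6.53 ± 0.47). PRX71, whose promoter is shown above, had 1086, 929.8 and 1091 CPM in Col, against 53.3, 68.8 and 45.1 CPM in fls2 (4.22 ± 0.28). PER4 rose by 5.19 ± 0.47. PRX34, a peroxidase that makes apoplastic hydrogen peroxide, rose by 2.61 ± 0.21. RBOHD, the main NADPH oxidase of the burst, had 107, 105.1 and 53.0 CPM in Col, against 42.9, 34.1 and 16.98 CPM in fls2 (1.497 ± 0.29). Library 3 was the lowest for RBOHD in both genotypes.

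WRKY factors rose almost throughout. Of 29 members, 27 rose and none fell, with a median of 1.69. WRKY54 had 6.74, 9.29 and 7.11 CPM in Col, against 0.908, 1.03 and 1.12 CPM in fls2 (2.91 ± 0.30), and WRKY29, an early target of the flg22 MAP kinase pathway, rose by 2.62 ± 0.33. WRKY70, a factor at the node between salicylate and jasmonate, had 121, 97.8 and 110.3 CPM in Col, against 18.3, 7.27 and 32.2 CPM in fls2 (2.51 ± 0.39). The fls2 libraries of WRKY70 spread more widely than the Col libraries. With only the 6 libraries in the fit, 15 members passed.

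**Figure D2:**
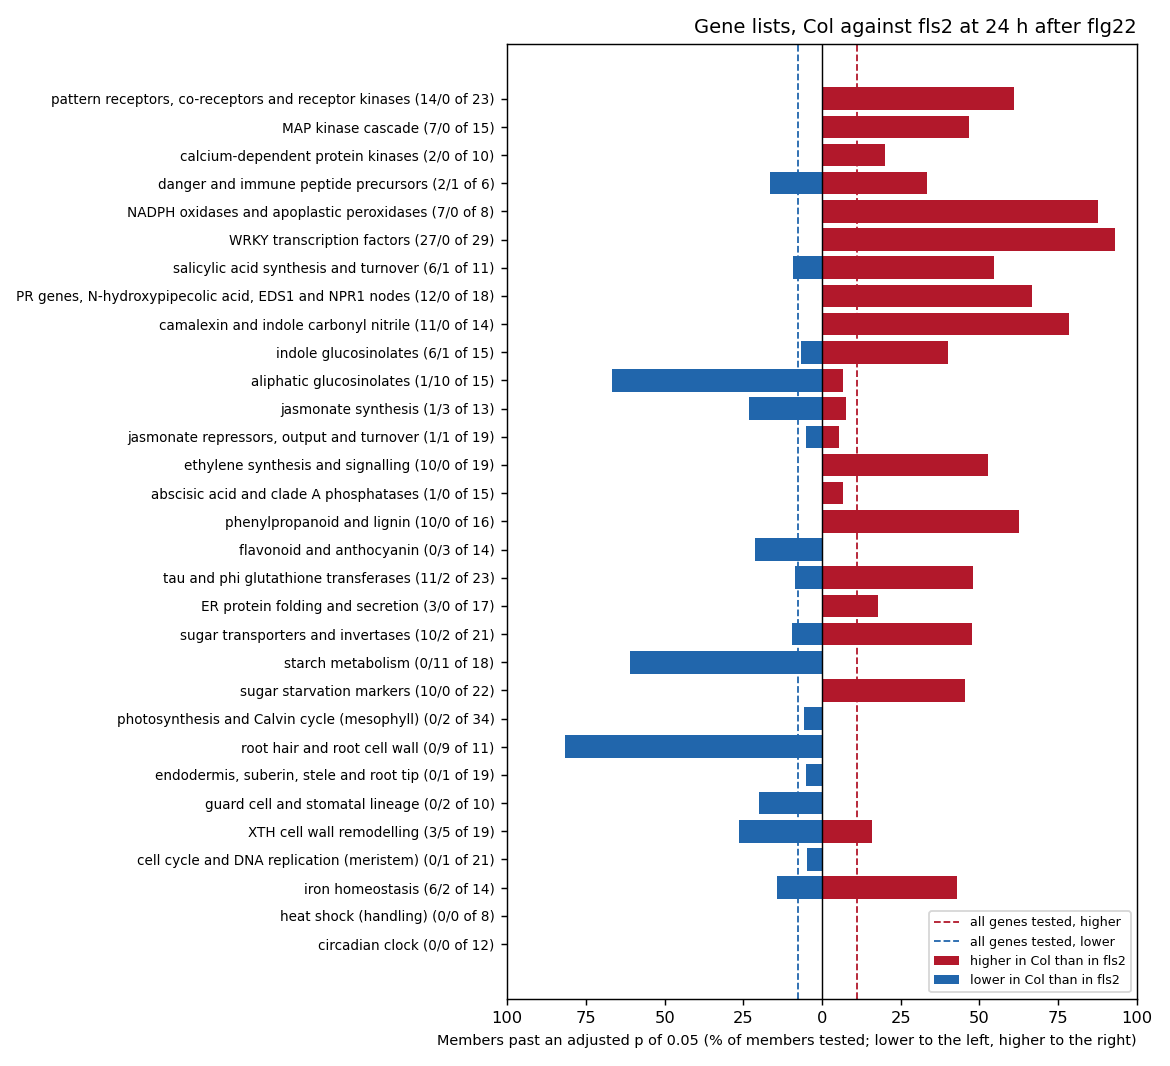
Share of the members of each of 31 gene lists (y axis, with members higher, lower and tested) past an adjusted p of 0.05 in Col against fls2 at 24 h, lower to the left and higher to the right (x axis, percent of members tested). Dashed lines mark 11.0% higher and 7.59% lower over all genes tested. The WRKY bar reaches furthest to the right and the root hair bar furthest to the left.

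Of 11 genes of salicylate synthesis and turnover, 6 rose and 1 fell (median 1.64). CBP60G and SARD1, the transcription factors that switch on the pathway, rose by 3.32 ± 0.35 and 2.82 ± 0.42. ICS1, the isochorismate synthase, had 28.6, 31.3 and 38.3 CPM in Col, against 10.6, 11.2 and 9.61 CPM in fls2 (1.64 ± 0.27). DMR6, a salicylate hydroxylase, rose by 2.19 ± 0.20. UGT74F1, a salicylate glucosyltransferase, fell by 0.82 ± 0.21 on the log2 scale (edgeR adjusted p = 0.0097). It did not pass without Col library 1 (edgeR adjusted p = 0.06) or fls2 library 3 (edgeR adjusted p = 0.076, range 0.0018 to 0.083).

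The output of the salicylate pathway was uneven. Of 18 PR genes and genes of the N-hydroxypipecolic acid, EDS1 and NPR1 nodes, 12 rose and none fell (median 1.00). PR1, the classical salicylate marker, had 158, 131 and 97.6 CPM in Col, against 37.6, 0.217 and 14.3 CPM in fls2 (2.89 ± 0.88, edgeR adjusted p = 0.029). The fls2 libraries of PR1 ranged over 2 orders of magnitude. PR1 did not pass without Col library 1 (edgeR adjusted p = 0.07), Col library 2 (0.062) or fls2 library 3 (0.09), with a range of 0.0024 to 0.14 over the alternatives. NIMIN-1, which binds NPR1, rose by 3.796 ± 0.50, and FMO1, the enzyme that makes N-hydroxypipecolic acid, had 8.32, 11.0 and 7.92 CPM in Col, against 2.04, 1.46 and 1.504 CPM in fls2. The plant natriuretic peptide gene PNP-A rose by 2.48 ± 0.35 and NPR1, the salicylate receptor, by 1.43 ± 0.26. PR4, a chitin-binding PR protein, missed the threshold at 0.81 ± 0.29 (edgeR adjusted p = 0.057). It passed with the trial block (edgeR adjusted p = 0.00054) and without fls2 library 1 (edgeR adjusted p = 0.0072, range 0.00054 to 0.24).

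In both lists of indole metabolism, more genes rose than fell. Of 14 genes of camalexin and indole carbonyl nitrile synthesis, 11 rose and none fell (median 1.70). CYP79B2, which makes the shared precursor indole-3-acetaldoxime, had 358, 442 and 435 CPM in Col, against 54.8, 65.8 and 80.0 CPM in fls2 (2.62 ± 0.29). CYP71A12 had 309.9, 323 and 262 CPM in Col, against 19.9, 9.71 and 6.36 CPM in fls2 (4.64 ± 0.46). CYP82C2, of the 4-hydroxyindole carbonyl nitrile branch, had 42.9, 27.1 and 29.6 CPM in Col, against 0.511, 0.0542 and 0.146 CPM in fls2 (7.13 ± 0.67). CYP71B15, the last enzyme of camalexin synthesis, rose by 1.19 ± 0.27 (edgeR adjusted p = 0.0049), and ASA1, of tryptophan synthesis, by 1.98 ± 0.25. CYP71A13, a near-identical neighbour of CYP71A12 whose reads the counting could split, rose by 2.57 ± 0.57 (edgeR adjusted p = 0.0041). With only the 6 libraries in the fit, CYP71B15 and CYP71A13 did not pass (edgeR adjusted p = 0.052 and 0.054, ranges 0.00035 to 0.052 and 0.00054 to 0.054), and 7 members of the list did.

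Of 15 genes of indole glucosinolate synthesis and breakdown, 6 rose and 1 fell (median 0.57). The regulator MYB51 rose by 2.34 ± 0.26, and CYP81F2, which hydroxylates the indole ring, by 2.37 ± 0.31. CYP83B1 rose by 1.605 ± 0.26. CYP81F3, a paralogue of CYP81F2, had 4.61, 6.95 and 8.58 CPM in Col, against 16.8, 11.7 and 13.5 CPM in fls2 (-1.06 ± 0.26). Without Col library 3, 5 members were lower, and the trial block gave 3.

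The aliphatic branch, built from methionine, went the other way. Of 15 aliphatic glucosinolate genes, 10 fell and 1 rose (median -1.26). BCAT4, the aminotransferase that starts methionine chain elongation, had 28.4, 53.5 and 61.5 CPM in Col, against 159, 126 and 152 CPM in fls2 (-1.61 ± 0.29). CYP79F2 fell by 1.68 ± 0.33 on the log2 scale, and MAM1, the elongation synthase, by 1.36 ± 0.23. Col library 1 was the lowest of the 6 for BCAT4 and for CYP79F2. The riser was SOT17, a sulfotransferase (1.19 ± 0.26). With only the 6 libraries in the fit, 6 members were lower.

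Of 16 phenylpropanoid and lignin genes, 10 rose and none fell (median 1.08). C4H, the cinnamate hydroxylase, had 1880, 1457 and 1108 CPM in Col, against 551, 469 and 467 CPM in fls2 (1.58 ± 0.20), and CCR2, a cinnamoyl-CoA reductase linked to defence lignin, rose by 2.05 ± 0.35. Of 23 tau and phi glutathione transferases, 11 rose and 2 fell (median 0.59). GSTF6, which acts in camalexin synthesis, had 2745, 2652 and 2127 CPM in Col, against 494, 470.5 and 304 CPM in fls2 (2.57 ± 0.23). GSTF7, a close copy of GSTF6, rose by 3.13 ± 0.23, and reads of the pair may have been split. GSTU20, which acts in glucosinolate synthesis, fell by 1.53 ± 0.26 on the log2 scale, and GSTU25 by 2.205 ± 0.31. Without fls2 library 2, 6 phenylpropanoid genes passed, and with only the 6 libraries in the fit, 5. The trial block gave 4 lower glutathione transferases.

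**Figure D3:**
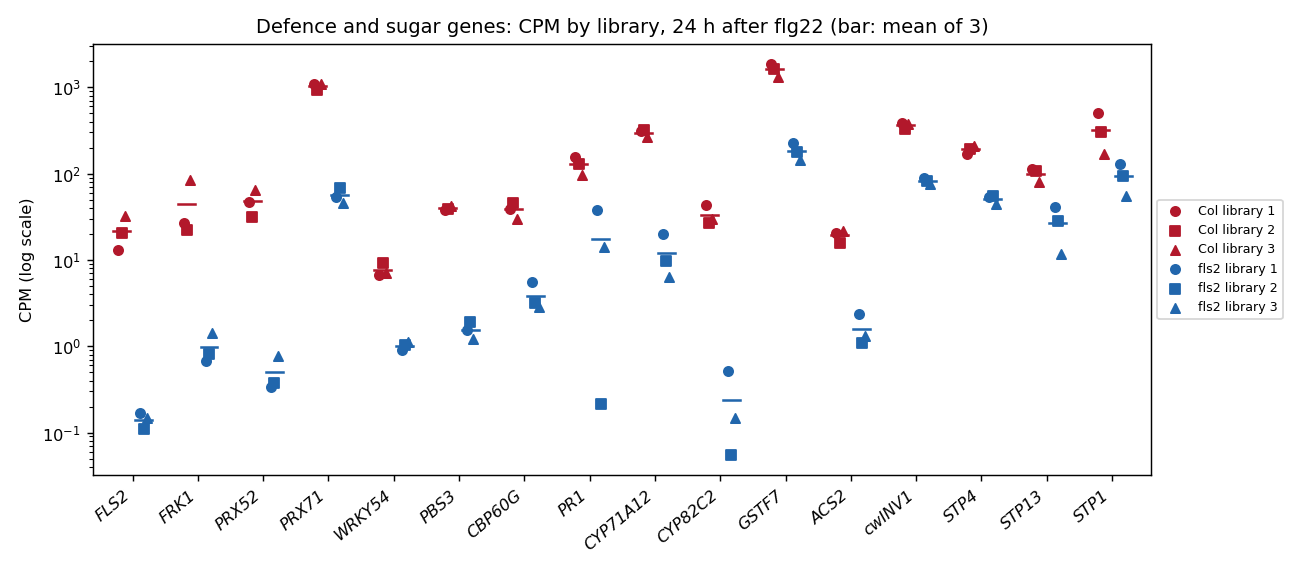
CPM on a log axis (y axis) in each library at 24 h for 16 defence and sugar genes (x axis), Col in red to the left of fls2 in blue, with a marker shape for each library number and a bar at the mean of 3. The Col points of each gene lie above its fls2 points, and PR1 shows the widest spread within fls2, from 0.217 to 37.6 CPM.

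Of 19 ethylene genes, 10 rose and none fell (median 0.79). ACS7, an ACC synthase, had 244, 212 and 289 CPM in Col, against 35.2, 21.0 and 16.7 CPM in fls2 (3.35 ± 0.30), and ACS2 rose by 3.61 ± 0.27. With only the 6 libraries in the fit, 5 ethylene genes passed. Of 13 jasmonate synthesis genes, 1 rose and 3 fell (median -0.14), against 10 that were higher at 2 h. Of all genes tested, 18.7% were higher at 2 h. AOS, the allene oxide synthase that commits lipid peroxides to the pathway, had 43.3, 42.0 and 57.2 CPM in Col, against 115, 82.1 and 77.4 CPM in fls2 (-0.95 ± 0.21). The allene oxide cyclases AOC1 and AOC2 fell by 1.91 ± 0.39 and 1.61 ± 0.39 on the log2 scale. The riser did not pass without Col library 1, Col library 2, fls2 library 2 or fls2 library 3, and the trial block gave 5 lower genes. Of 19 jasmonate repressors, output and turnover genes, 1 rose and 1, CORI3, fell, beside 11.0% higher and 7.59% lower of all genes tested. The riser again did not pass without those 4 libraries in turn or with the other scalings, and the trial block gave 3 higher and 2 lower. Of 15 abscisic acid genes, 1 rose and 14 did not pass (median 0.03), beside 11.0% higher of all genes tested. None of the 15 rose without Col library 3 or fls2 library 2 or with only the 6 libraries in the fit. Without Col library 3, 1 abscisic acid gene was lower, and the trial block gave 2.

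Of 21 sugar transporters and invertases, 10 rose and 2 fell (median 0.53). The cell wall invertase gene cwINV1, whose enzyme splits sucrose in the apoplast, had 381, 326 and 379 CPM in Col, against 88.5, 82.9 and 75.1 CPM in fls2 (2.14 ± 0.18), and CWINV6 rose by 1.91 ± 0.27. The hexose-proton symporter gene STP4 had 167, 193 and 211 CPM in Col, against 53.3, 55.1 and 44.9 CPM in fls2 (1.90 ± 0.24). STP13 had 113, 108 and 79.3 CPM in Col, against 41.4, 28.1 and 11.8 CPM in fls2 (1.88 ± 0.29). The sucrose transporter gene SUC2 of the phloem rose by 1.46 ± 0.26.

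STP1, the main seedling monosaccharide transporter, had 497, 299 and 167 CPM in Col, against 129, 94.0 and 54.8 CPM in fls2. Every Col library lay above every fls2 library, as for 16.9% of all genes tested. In both genotypes library 1 was the highest and library 3 the lowest. The log2 fold change of STP1, 1.79 ± 0.64, missed the threshold (edgeR adjusted p = 0.058). It passed with the trial block (edgeR adjusted p = 0.0075) and without Col library 3 (edgeR adjusted p = 0.028, range 5.1e-06 to 0.23). STP14 rose by 1.76 ± 0.50 (edgeR adjusted p = 0.019). It did not pass without Col library 1 (1.08, edgeR adjusted p = 0.16), fls2 library 2 or fls2 library 3 (both 0.077, range 6.2e-06 to 0.16). The vacuolar sugar transporter gene SWEET16 and the plasma membrane transporter gene SWEET1 fell by 1.67 ± 0.35 and 1.89 ± 0.28 on the log2 scale. Without Col library 1, fls2 library 2 or fls2 library 3, the list held 6 risers, and without Col library 3 or with the trial block, 4 fallers.

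Of 18 starch metabolism genes, 11 fell and none rose (median -0.73). GBSS1, the granule-bound starch synthase, had 22.2, 24.0 and 53.8 CPM in Col, against 90.3, 102 and 108 CPM in fls2 (-1.59 ± 0.30). GPT2, the glucose 6-phosphate translocator of plastids, had 20.6, 34.5 and 56.6 CPM in Col, against 103, 146 and 267 CPM in fls2 (-2.21 ± 0.39). PHS1 (AT3G29320), the plastid starch phosphorylase, fell by 1.04 ± 0.19 on the log2 scale. Genes of synthesis and of breakdown were both among the 11. Without Col library 1, 7 starch genes passed, and with only the 6 libraries in the fit, 5.

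Of 22 sugar starvation markers, 10 rose and none fell (median 1.32). PPDK, pyruvate orthophosphate dikinase, had 283, 231 and 229 CPM in Col, against 88.1, 57.3 and 61.7 CPM in fls2 (1.84 ± 0.18). DIN4, of branched-chain amino acid breakdown, had 149, 96.3 and 43.0 CPM in Col, against 34.9, 17.7 and 12.8 CPM in fls2 (2.14 ± 0.41). In both genotypes library 1 was the highest and library 3 the lowest over the whole list, which summed to 4390, 3060 and 1850 CPM in Col and 3480, 2500 and 930 CPM in fls2. The count was 3 without Col library 1 or fls2 library 3, 4 without fls2 library 2, 16 without Col library 3 and 16 with the trial block. With only the 6 libraries in the fit it was also 3.

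Of 34 photosynthesis and Calvin cycle genes, 2 fell and 32 did not pass (median -0.29), against 32 lower at 2 h. Of all genes tested, 16.1% were lower at 2 h and 7.59% at 24 h. RBCS1A, the most abundant small subunit of Rubisco, had 4133, 4114 and 5535 CPM in Col, against 7961, 10370 and 8942 CPM in fls2 (-0.98 ± 0.23). Reads of RBCS copies may have been split by the counting. The 34 genes summed to 12700, 12500 and 23200 CPM in Col and 21200, 26100 and 26300 CPM in fls2, so Col library 3 lay apart from the other Col libraries. Without Col library 3, 15 members were lower, and the trial block gave 9. Without Col library 1, Col library 2, fls2 library 2 or fls2 library 3, 1 was lower.

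Of 14 flavonoid and anthocyanin genes, 3 fell and 11 did not pass, though all 14 estimates were below 0 (median -1.20). MYB111, a regulator of flavonol synthesis, had 5.22, 15.6 and 9.99 CPM in Col, against 45.6, 77.7 and 36.9 CPM in fls2 (-2.38 ± 0.42). The count was 12 without Col library 3 and 13 with the trial block.

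Most genes of the root hair list fell together. Of 11 root hair and root cell wall genes, 9 fell and none rose (median -2.51), and each of the 15 alternatives gave the same count of 9. The 11 genes summed to 21.9, 20.8 and 38.0 CPM in Col, against 223, 148 and 181 CPM in fls2. RSL4, the basic helix-loop-helix factor that drives hair elongation, had 0.728, 0.431 and 0.908 CPM in Col, against 7.04, 4.61 and 8.88 CPM in fls2 (-3.28 ± 0.56). PRP3, a proline-rich wall protein of root hairs, had 3.28, 2.64 and 6.004 CPM in Col, against 48.8, 30.2 and 36.6 CPM in fls2 (-3.26 ± 0.35). AGP30, an arabinogalactan protein of the root, had 0.243, 0.0615 and 0.0504 CPM in Col, against 8.40, 14.9 and 6.21 CPM in fls2 (-6.34 ± 0.59). The groups of these genes did not overlap, and 14.6% of all genes tested had every Col library below every fls2 library. Col library 3 was the highest Col library for RSL4 and PRP3 but not for AGP30.

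Further genes of root hairs fell, but they were named because their changes were among the largest, so they do not extend the list result. COW1, a phosphatidylinositol transfer protein of root hair tips, had 3.46, 3.44 and 3.48 CPM in Col, against 31.4, 17.58 and 24.7 CPM in fls2 (-2.82 ± 0.23). The extensin genes EXT6 and EXT10 fell by 3.08 ± 0.33 and 3.22 ± 0.35 on the log2 scale, with the caution that extensins are a repetitive family whose reads may be shared. XTH14 and XTH26, wall enzymes of root hairs, fell by 2.62 ± 0.25 and 3.85 ± 0.48. RSL2, a root hair factor outside the list, went the other way and rose by 3.97 ± 0.49.

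Of 19 endodermis, suberin, stele and root tip genes, 1 fell and 18 did not pass (median -0.25), beside 7.59% lower of all genes tested. They summed to 171 to 187 CPM in Col and 201 to 239 CPM in fls2. The faller was the tonoplast aquaporin gene TIP2;3 (-2.44 ± 0.36). The 5 root hair markers used to check the tissue all fell, summing to 8.37 to 15.4 CPM in Col and 53.3 to 82.1 CPM in fls2. These markers share members with the root hair list above, PRP3 and RSL4 among them, so they are not a separate result. The 6 endodermis markers summed to 59.6 to 66.9 CPM in Col and 62.2 to 96.2 CPM in fls2, and the 4 root tip markers to 3.01 to 5.35 CPM in Col and 4.77 to 8.64 CPM in fls2. Neither set had a member past the threshold. The 5 mesophyll markers, all photosynthesis genes, summed to 6190 to 11400 CPM in Col and 11800 to 14500 CPM in fls2, with no overlap, and 1 of them, RBCS1A, fell. The part of mesophyll in other differences was not tested. Of 10 guard cell and stomatal lineage genes, 2 fell, and of 21 cell cycle genes, 1 fell (median -0.28). The cell cycle count lies below the 7.59% lower over all genes tested. None of the 2 stomatal genes passed without Col library 1 or Col library 2 in turn, 1 passed without fls2 library 2 or fls2 library 3, and the cell cycle gene did not pass without Col library 1 or fls2 library 3.

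Of 19 XTH wall enzymes, 5 fell and 3 rose (median -0.56). XTH30 had 137, 98.5 and 68.8 CPM in Col, against 46.4, 32.2 and 23.2 CPM in fls2 (1.58 ± 0.28). Without Col library 3, 9 members were lower, as with the trial block, and without Col library 1, Col library 2 or fls2 library 3, or with only the 6 libraries in the fit, 1 was higher.

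**Figure D4:**
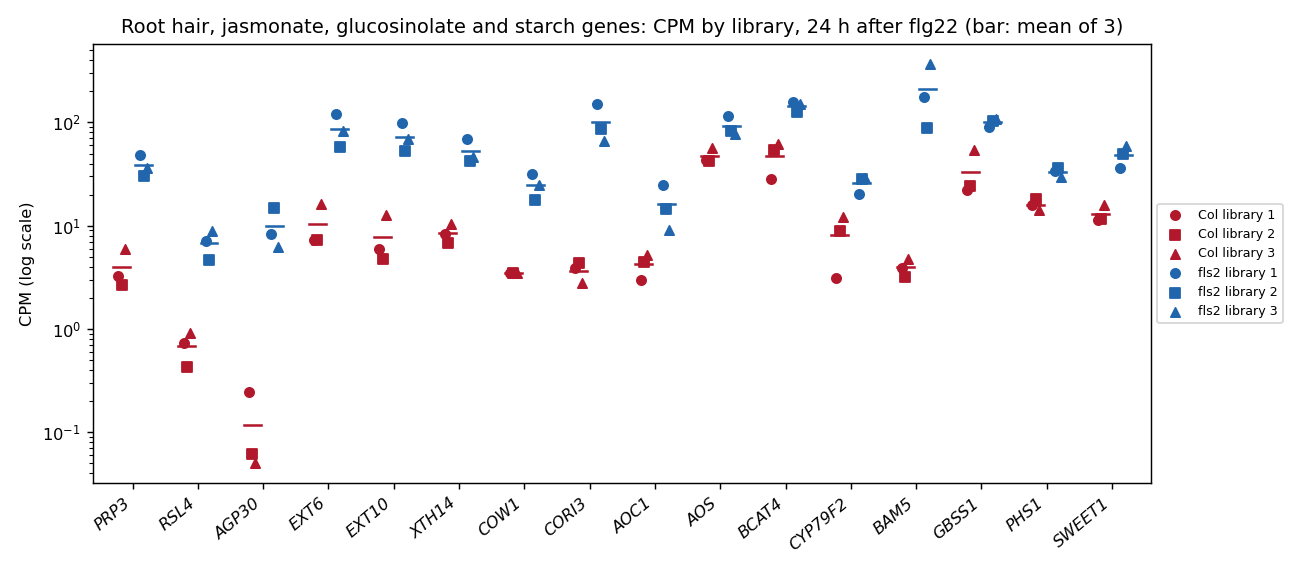
CPM on a log axis (y axis) in each library at 24 h for 16 root hair, jasmonate, glucosinolate and starch genes (x axis), Col in red to the left of fls2 in blue, with a marker shape for each library number and a bar at the mean of 3. All Col points lie below all fls2 points of the same gene, and AGP30 reaches the lowest Col level, 0.0504 CPM.

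Iron genes also differed. Of 14 iron homeostasis genes, 6 rose and 2 fell (median 0.78). BHLH39 and BHLH38, basic helix-loop-helix factors of the iron deficiency response, stood out. BHLH39 had 12.4, 21.9 and 40.01 CPM in Col, against 3.12, 3.53 and 3.83 CPM in fls2 (2.82 ± 0.55), and BHLH38 rose by 3.55 ± 0.73 (edgeR adjusted p = 0.0022). FER1, the iron storage protein ferritin, had 30.2, 35.2 and 30.5 CPM in Col, against 60.1, 54.4 and 146 CPM in fls2 (-1.44 ± 0.28). The difference of FER1 was -0.84 without fls2 library 3. Without Col library 3, 3 iron genes rose, and 1 fell without Col library 1, Col library 3 or fls2 library 3.

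Of 17 genes of protein folding and secretion in the endoplasmic reticulum, 3 rose at 24 h (median 0.10), against 15 at 2 h (median 1.15). At 24 h, 1 passed without Col library 2 or fls2 library 3, and none with only the 6 libraries in the fit. At 2 h, 4 of 8 heat shock genes and 2 of 12 circadian clock genes were higher, beside 18.7% of all genes tested. The clock count lies near that share. None of the 8 and none of the 12 passed at 24 h by edgeR or DESeq2, and 0 of either list had an unadjusted edgeR p under 0.05. With the trial as a block and only the 6 libraries in the fit, 1 gene of each list was higher. Without Col library 3, 1 clock gene was higher.

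Against the 2 h comparison, which called 7476 genes (34.8%), the late calls overlapped in part. At 2 h, 18.7% of genes tested were higher in Col and 16.1% lower. The 2 comparisons use different seedlings of the same genotypes and come from the same fit. Of the 2355 genes higher at 24 h, 1704 (72.4%) were also higher at 2 h, 616 (26.2%) were not called and 35 (1.49%) were lower. Of the 1629 genes lower at 24 h, 732 (44.9%) were also lower at 2 h, 880 (54.0%) were not called and 17 (1.04%) were higher. The difference between times was tested itself, as the 24 h log2 change minus the 2 h log2 change in the same model. It passed for 2262 genes (10.5%), with 966 positive (4.50%) and 1296 negative (6.04%), and 3721 genes passed with the trial block.

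For the photosynthesis list the difference between times passed for 18 of 34 members, all positive. For the jasmonate synthesis list it passed for 9 of 13 and for the root hair list for 9 of 11, all negative, as were 9 of 15 in the indole glucosinolate list. Of the pattern receptors, 14 of 23 had a negative difference, and 4 of these 14 (PEPR1, PBL1, RLP23 and RLK7) were called higher at 2 h and not at 24 h. Of the WRKY list 13 were negative and 1, WRKY70, was positive.

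**Figure D5:**
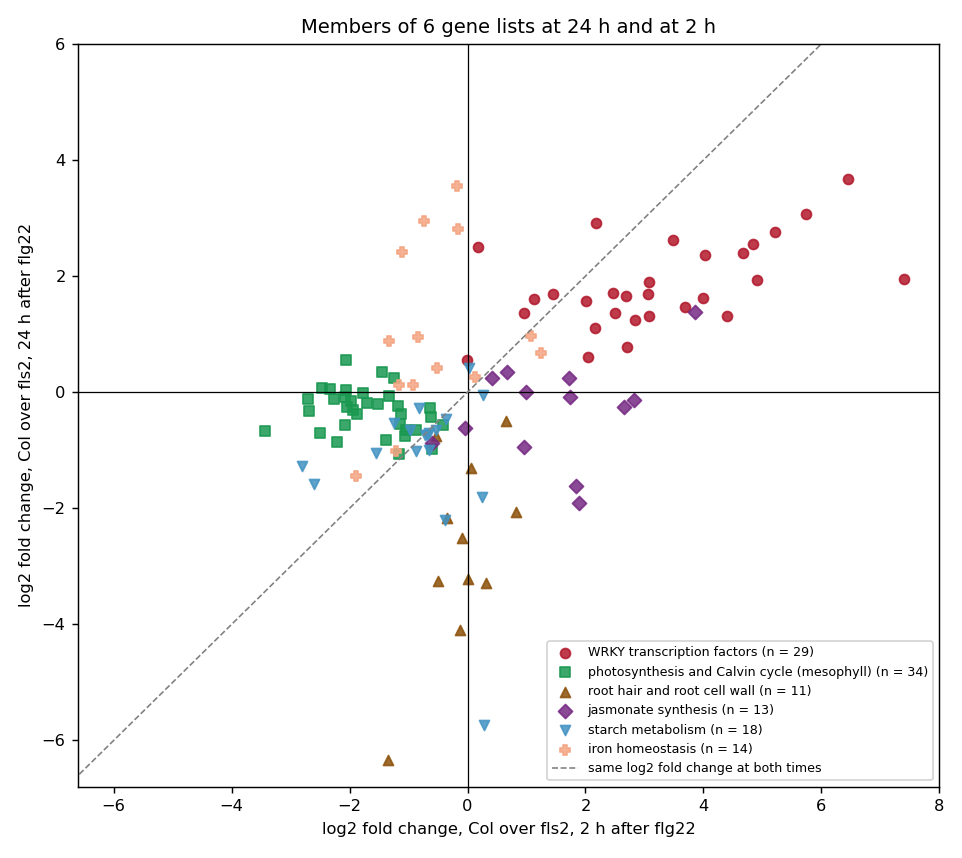
Log2 fold change of Col over fls2 at 24 h (y axis) against 2 h (x axis) for members of 6 gene lists, with a dashed line where both times are equal. WRKY members lie in the upper right, mostly below the line, photosynthesis members at the left near 0 on the y axis, and root hair members mostly near 0 on the x axis and below 0 on the y axis.

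Several salicylate genes were higher at 24 h and did not pass at 2 h. PR1 had 2.70, 2.67 and 0.494 CPM in Col at 2 h, against 7.16, 4.69 and 6.68 CPM in fls2 at 2 h, and the difference between times was 4.56 ± 1.302 (edgeR adjusted p = 0.031). WRKY70 had 27.8, 18.5 and 33.0 CPM in Col at 2 h, against 29.1, 18.1 and 23.6 CPM in fls2 at 2 h, where the genotypes overlapped (difference between times 2.34 ± 0.53). DMR6 likewise overlapped at 2 h (1.93 ± 0.29). The transport gene PCR1 and the NAC gene XND1 also did not pass at 2 h (0.04 ± 0.42 and 0.59 ± 0.38). The transport gene HAK5 narrowly missed the threshold at 2 h (1.16 ± 0.46, edgeR adjusted p = 0.059). The differences between times of PCR1, HAK5 and XND1 were 5.13 ± 0.61, 2.57 ± 0.66 and 3.19 ± 0.54. PR1 in this test did not pass without Col library 1 (edgeR adjusted p = 0.05), Col library 2 (0.054) or fls2 library 3 (0.053, range 0.0041 to 0.054).

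Among genes that reversed, AOC1 had 21.2, 33.2 and 14.9 CPM in Col at 2 h, against 7.70, 3.01 and 7.90 CPM in fls2 at 2 h, a rise of 1.89 ± 0.38. At 24 h it was lower in Col, as given above, and the difference between times was -3.81 ± 0.55. AOC2 and AOS did the same (-3.45 ± 0.56 and -1.90 ± 0.29). ECS1, a cell wall protein, had 336, 616 and 803 CPM in Col at 24 h, against 228, 164 and 218 CPM in fls2 at 24 h (1.52 ± 0.35). At 2 h ECS1 had 80.6, 96.8 and 59.2 CPM in Col, against 222, 203 and 152 CPM in fls2, a fall of 1.28 ± 0.35 on the log2 scale. The wall-associated kinase gene WAK2 reversed in the same sense, with 1.47 ± 0.37 at 24 h (edgeR adjusted p = 0.0091) and -1.44 ± 0.37 at 2 h. At 24 h WAK2 did not pass without Col library 3 (edgeR adjusted p = 0.054, range 0.00017 to 0.056).

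Of the 11 root hair and root cell wall genes, 1, AGP30, was already lower in Col at 2 h (-1.35 ± 0.37, edgeR adjusted p = 0.0083), and none was higher. RSL4 had 8.34, 3.50 and 7.47 CPM in Col at 2 h, against 6.03, 1.74 and 7.75 CPM in fls2 at 2 h, so the genotypes overlapped (difference between times -3.60 ± 0.73, edgeR adjusted p = 0.0039). COW1 and PRP3 also overlapped at 2 h, and COW1, PRP3 and AGP30 gave differences between times of -3.01 ± 0.31, -2.77 ± 0.46 and -4.99 ± 0.73.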

How the data were processed

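BrAD-seq, which reads the 3′ ends of transcripts and keeps the strand, was applied to 500 ng of RNA per library, per the labels' protocols. Per the submitters' processing notes, fastp 0.19.7, STAR 2.6.1b, TAIR10 and featureCounts 1.6.0 were used. The authors deposited whole-number read counts for each gene. Whether counting used the strand is not stated, so genes overlapping an antisense partner are uncertain, as are near-identical copies. Symbols and promoters came from RefSeq TAIR10.1, which differs in name from the submitters' build. Of 32833 loci, 32548 matched by locus tag and 10804 had a symbol. Promoter coordinates are those of TAIR10.1.

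In R 4.3.3, edgeR 4.0.16 (TMM, filterByExpr, quasi-likelihood test, two-sided, Benjamini-Hochberg adjustment over all genes tested, threshold 0.05) was fitted to the 18 libraries of the table that holds 2 h and 24 h, in 6 groups (Col, fls2 and stp1/4/13 at each time) with no block. The script was tested on simulated data. CPM values are scaled by the TMM factors of the libraries, and the p-values rest on 3 trials. Named genes were FLS2, the 15 largest rises and falls that had a symbol, did not overlap between genotypes and reached a mean of at least 3 in log2 CPM (prior count 2), the members of each list with the largest changes, and the 6 largest differences between times in each direction. Others were added after their values were seen, among them COW1, WRKY70, DMR6, AOC1, PCR1 and XND1 in the comparison of times. The 31 lists (522 loci) and the comparison itself were chosen with earlier results of these data known, and no set test was run. The other table of the series was not used here.

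The replicate numbers were checked as a pairing. Deviations from the group means correlated across genes by 0.413, 0.242 and 0.530 for Col and fls2 libraries 1, 2 and 3 of the same number, and by -0.434 to 0.121 for different numbers, so the numbers were taken to mark the trials. Alternatives were DESeq2 1.42.0, RLE scaling, no scaling, other count filters, only the 6 libraries, the trial as a block and leaving out each library.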

Additional observations from a re-analysis of the deposited data

Results flagged for a closer look

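The difference of the genotype effect between 24 h and 2 h (24 h log2 change minus 2 h log2 change) is given here for 26 genes for which it passed in edgeR at an adjusted p of 0.05, and other genes named above passed too. Among genes whose change was more positive at 24 h, AT4G12490, a locus without a symbol, gave 4.97, PCR1 gave 5.13, PR1 4.56, RSL2 3.98, ARD3 3.41, XND1 3.19, WAK2 2.91, ECS1 2.81, PHI-1 2.58, HAK5 2.57, WRKY70 2.34 and DMR6 1.93. ARD3, an acireductone dioxygenase of the methionine cycle, had 545, 318 and 68.8 CPM in Col at 24 h, against 75.1, 11.9 and 8.15 CPM in fls2, and its lowest Col library lay below the highest fls2 library. PHI-1, a phosphate-induced extracellular protein, also overlapped between genotypes at 24 h.

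Among genes whose change was more negative at 24 h, BAM5 gave -6.02, AGP30 -4.99, GSTU12 -4.54, CORI3 -4.34, PROPEP3 -4.17, EXT12 -4.01, IGMT2 -3.88, AOC1 -3.81, RSL4 -3.60, AOC2 -3.45, PROPEP2 -3.23, COW1 -3.01, PRP3 -2.77 and AOS -1.90. Of these, GSTU12, PROPEP2, PROPEP3 and IGMT2 were higher in Col at both times, by less at 24 h. GSTU12, a tau glutathione transferase, had 16.2, 24.8 and 29.3 CPM in Col at 24 h, against 6.07, 4.45 and 2.96 CPM in fls2. IGMT2, an indole glucosinolate methyltransferase with close copies whose reads may be shared, had 24.4, 34.0 and 35.3 CPM in Col at 24 h, against 7.78, 8.73 and 3.59 CPM in fls2. EXT12, an extensin, had 1.52, 1.17 and 1.82 CPM in Col at 24 h, against 30.5, 25.5 and 22.9 CPM in fls2.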

How the results depend on the processing

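No gene called in the 24 h comparison changed direction under any of the 15 alternatives run. With only the 6 libraries in the fit, 2090 genes passed (1271 higher, 819 lower), 2041 of them also called with 18 libraries. The block within each time gave 2601 lower genes, and 3721 genes for the difference between times (1678 positive, 2043 negative). The block with only the 6 libraries gave 6540 genes, 3148 of them lower. The replicate block over all 18 libraries gave 4772 genes, and it and the block within each time lost no gene named as risen or fallen. Leaving out 1 library at a time gave 2679 to 5099 genes (1576 to 2684 higher, 955 to 2415 lower), 1699 to 2325 genes for the difference between times (663 to 998 positive, 986 to 1418 negative) and 7274 to 7852 genes at 2 h. DESeq2 called 4660 genes and edgeR with no scaling 3837. Of 120 gene results called at 24 h, 12 were lost under at least 1 alternative, as were 3 of 26 for the difference between times (PR1, ARD3 and PHI-1). The cause of these shifts was not tested, beyond the smaller number of libraries in some fits. Standard errors were derived from edgeR's test, as the absolute log2 change divided by the square root of its F statistic. Genes near 0.1 CPM rest on few reads.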

Other observations

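A list of genes of the response to phosphate shortage was added after its values were seen. Of 18 members, 9 were lower, 1 higher and 8 did not pass (median -1.06), against 2 lower and 2 higher at 2 h. Of all genes tested, 7.59% were lower and 11.0% higher at 24 h, and 16.1% lower and 18.7% higher at 2 h. The 2 h counts thus lie below those shares. SPX1, SPX2, PAP17 and PHO2 were among the members that did not pass at 24 h. MGDC, a galactolipid synthase, had 0.607, 1.29 and 1.06 CPM in Col at 24 h, against 18.7, 32.4 and 6.45 CPM in fls2 (-4.27 ± 0.66), and MGD2, another galactolipid synthase, had 1.94, 1.72 and 1.21 CPM in Col, against 18.22, 19.1 and 5.63 CPM in fls2. SQD2, of sulfolipid synthesis, had 21.4, 19.0 and 29.7 CPM in Col, against 92.2, 100.1 and 70.1 CPM in fls2 (-1.90 ± 0.29). For the galactolipid genes, fls2 library 3 was the lowest of the fls2 libraries and still above every Col library. The list was lower for 8 to 10 members under the alternatives. The higher member was PHT1;1, a phosphate transporter (0.55 ± 0.19, edgeR adjusted p = 0.048), which did not pass under 9 of the 15 alternatives (range 0.017 to 0.17).

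A few genes chosen after their values were seen stand outside the lists. RSL2, a root hair factor of the same family as RSL4, was higher in Col, with 19.9, 12.6 and 19.9 CPM in Col at 24 h, against 1.02, 1.19 and 1.12 CPM in fls2 (3.97 ± 0.49), while RSL4 was lower. AT4G12490, a locus without a symbol, had 11150, 7543 and 5408 CPM in Col at 24 h, against 53.9, 34.3 and 36.8 CPM in fls2 (7.59 ± 0.47). At 2 h AT4G12490 had 250.2, 213 and 430 CPM in Col, against 59.2, 46.5 and 39.0 CPM in fls2.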
